A study of Mus musculus with 474 samples.

Results

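Sister cells from 86 divisions of mouse haematopoietic stem cells (HSCs) were compared, 1 daughter of each division holding the larger share of lysosomes (high) and the other the smaller share (low). Both daughters were selected on the level of Plk1, which had to reach 10 CPM in each sister (CPM, the gene's reads scaled to a common total over all genes). The 86 divisions make up 42.4% of all divisions with a high and a low daughter, and their cells are 36.3% of the cells listed for the series. The other divisions comprised 91 with Plk1 under the threshold in both sisters, called Plk1-negative here. In 10 more only the high daughter reached the threshold, and in 16 only the low daughter did.

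All cells were wild type and came from bone marrow of male mice of the strain C57BL/6JRj, 12 to 19 weeks of age, with no treatment or transgene named in the labels. HSCs were filmed through their first division in culture, the daughters were picked by micromanipulator into lysis buffer, and polyA RNA of each was sequenced by Smart-seq2, which covers whole transcripts of single cells. High and low are labels in the deposited metadata. How they were set is not stated there, and no lysosome amounts are given, so the size of the asymmetry is unknown. The divisions came from 9 culture experiments, 5 in sequencing run 4 with 59 of the divisions and 4 in run 5 with 27, and an experiment held 4 to 17 of them. The labels do not tie experiments to animals, so p-values measure the spread between cultures.

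Polo-like kinase 1, the product of Plk1, is a kinase of mitotic entry, centrosome maturation, chromosome segregation and cytokinesis. Its transcript accumulates before mitosis and is cleared as cells leave it. Lysosomes degrade proteins, lipids and organelles, carry the mTORC1 nutrient sensor on their surface and take part in keeping HSCs quiescent. At division they can be shared unequally, and the daughter that receives more has been linked to a lower activation state in HSCs. Selecting on Plk1 in both sisters holds the Plk1 status of a division fixed, so that high and low were compared between sisters of 1 Plk1 class.

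Plk1 (ENSMUSG00000030867, GRCm38 chromosome 7, 122159439 to 122169873) spanned a wide range among the selected cells, with overlapping ranges under both labels. In high daughters it ran from 14.01 through a median of 147.9 to 450.2 CPM, and in low daughters from 11.1 through 146.6 to 479.5 CPM. The high daughter held more Plk1 than its sister in 44 of 86 divisions. Sisters were within 2-fold of each other in 46 divisions, and the median absolute log2 ratio between them was 0.88. These values describe the selection and were not tested. Taken by the lesser sister, divisions were sparse around the threshold. The lesser sister of the lowest selected divisions had 11.1 and 11.7 CPM, and that of the highest divisions left out had 8.17 and 7.02 CPM. The greater sister of divisions left out came closer to the threshold, with up to 8.51 and 8.73 CPM in Plk1-negative divisions. Where only 1 sister reached the threshold, it had as little as 10.3 and 11.3 CPM. In 9 of the selected divisions the lesser sister was under 20 CPM. Of the 26 divisions in which only 1 sister reached 10 CPM, it was the low daughter in 61.5% (exact 95% binomial interval 40.6% to 79.8%, which covers counting error only). The other sister was not always without Plk1: the division with 8.17 CPM in the lesser sister had 11.3 CPM in the greater one.

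**Figure D1:**
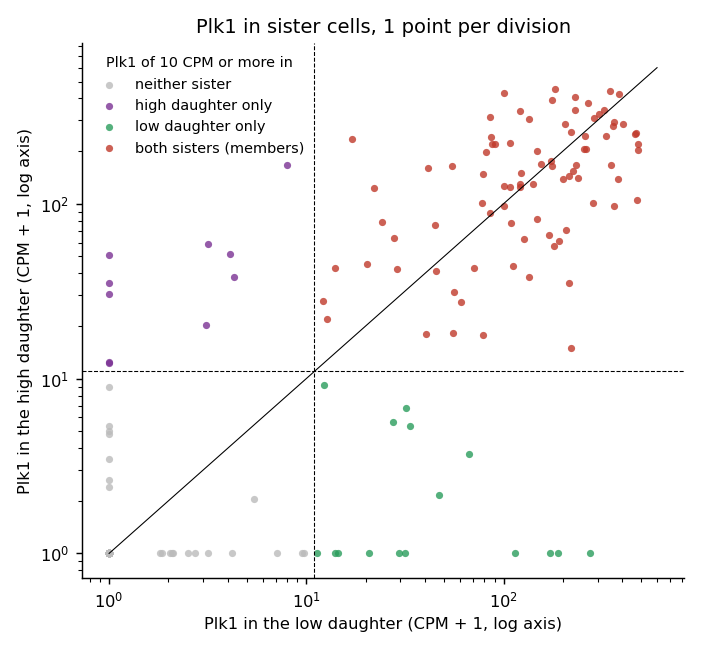
Plk1 level (CPM + 1, log axes) in the low (x axis) and high (y axis) daughter, 1 point per division, coloured by which sisters reached 10 CPM (dashed lines). The 86 selected divisions lie around the line of equal levels, with 44 above it and their lesser sisters at 11.1 CPM or more.

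Transcripts of HSC genes were detected in the selected cells, but each HSC marker looked at had a lower mean level than in Plk1-negative divisions. The selected cells also carried transcripts of cycling cells. Mecom and Hlf, transcription factor genes of HSCs, had a count in 100% and 99.4% of cells, at 1210 ± 325.1 and 247.8 ± 95.96 CPM (SD over 9 experiments). Kit, the stem cell factor receptor, had one in 99.4%, Procr, which encodes the surface receptor EPCR, in 82.6%, and Slamf1, which encodes CD150, in 23.8%. The proliferation genes Mki67 and Top2a had a count in every selected cell, at 1611 ± 380 and 1198 ± 188.9 CPM. In the Plk1-negative divisions Mecom stood at 1988 ± 597, Hlf at 656 ± 231.5 and Procr at 137.4 ± 49.8 CPM, against 40.5 ± 20.2 for Procr in the selected ones. Mki67 was at 139.7 ± 101.4 and Top2a at 88.7 ± 60.8 CPM in Plk1-negative divisions. The rule itself separates these classes, so their levels are given without a test.

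Markers of other cell types ranged from absent to common in the selected cells. Mpo of myeloid progenitors, C1qa of macrophages, Col1a1 of stroma and the globin gene Hba-a1 had no count in any selected cell. Elane had a count in 0.58% and Cd79a in 1.16%, while Prtn3, another granule protease gene, had one in 72.1% at 18.0 ± 7.90 CPM. Car2, an erythroid marker, was at 549.5 ± 104.6 CPM and had a count in 100% of cells. The platelet genes Pf4 and Itga2b had a count in 75.6% and 65.7%. The summed level of the 17 myeloid markers ran from 251.5 to 482 CPM in high and from 187.5 to 551 CPM in low daughters, and 3 of them were at 0. For the 18 lymphoid markers, 7 of them at 0, the range was 45.4 to 91.6 CPM in high and 48.1 to 130.5 CPM in low daughters.

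No library measure separated the labels beyond the spread of experiments. Total counts on genes had a median of 847051 (76735 to 2076840), and a typical cell had 10078.5 detected genes (median). On the log2 scale, high minus low was -0.18 ± 0.37 for total counts (SD, n = 9 experiments, exact two-sided sign-flip permutation p = 0.164, adjusted over 4 measures 0.328) and 0.22 ± 0.35 for gene counts per spike-in count (exact permutation p = 0.0938, adjusted 0.328). High daughters had 106.6 ± 438.6 more detected genes (exact permutation p = 0.613, adjusted 0.818) and differed by 0.013 ± 0.172 percentage points in mitochondrial counts (exact permutation p = 0.820, adjusted 0.820). Experiment 68 gave the widest gap in detected genes, 1150.6, and both libraries under 7000 genes, with 5538 and 6402, were low daughters there. Without experiment 68 the difference in detected genes was -23.9. Sisters shared a plate in all 86 divisions and sat in adjacent wells in 85. The high daughter was in the earlier well in 41.9% of divisions (exact 95% binomial interval 31.3% to 52.99%) and carried the track label R, whose meaning is not stated, in 59.3% (48.2% to 69.8%).

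No gene passed the test between high and low daughters. Counts were summed per experiment and label, which gives 9 paired sums, and 11258 genes were tested by edgeR's quasi-likelihood test with the experiment as block. None reached an adjusted p under 0.05 (0% of genes called, smallest adjusted p 0.999). At an unadjusted p under 0.05 there were 3.76% of the genes tested, and 51.1% of these had their higher value in high daughters. The median log2 difference over all genes was 0.00. DESeq2 on the same sums also called 0 genes, with 600 at an unadjusted p under 0.05, and limma on the 86 sister differences called 0 with 600. limma voom over single cells called 5 genes, all detected in 100% of cells: CT010467.1, the mitochondrial ribosomal RNA gene mt-Rnr2, the chromatin regulator gene Jarid2, the Mediator kinase gene Cdk8 and the calmodulin-dependent kinase gene Camk1d. Their log2 differences in the summed fit were 0.15, 0.04, 0.02, 0.14 and 0.04, and CT010467.1 and mt-Rnr2 had the opposite sign in voom, -0.39 and -0.44. The fits over sister differences and over single cells treat divisions of the same culture as replicates. Their p-values therefore do not measure the spread between cultures.

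The intervals show which differences these data could still hold. For 8655 genes, 76.9% of those tested, the 95% interval of the high to low difference lay within 2-fold in either direction. Among the 9604 genes with a count in at least 50% of the selected cells, this was so for 8616 (89.7%). For the remaining genes the interval reached past 2-fold in at least 1 direction.

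**Figure D2:**
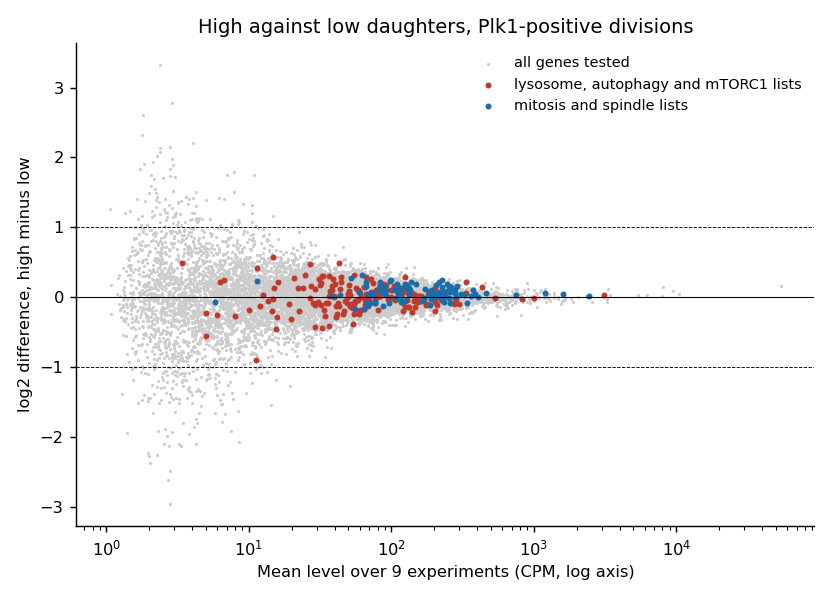
Log2 difference, high minus low (y axis, edgeR on summed counts), against the mean level over 9 experiments (x axis, CPM, log axis), 1 point per gene tested. Genes of the lysosome, autophagy and mTORC1 lists (red) and of the mitosis and spindle lists (blue) lie within the cloud of all 11258 genes (grey), and dashed lines mark 2-fold.

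Among the genes with the smallest unadjusted p, 7 had higher and 8 had lower values in high daughters, and none passed the test. Mapkap1 (ENSMUSG00000038696, chromosome 2, 34406771 to 34624950), which encodes the SIN1 subunit of the mTORC2 kinase complex, ran from 118.1 through a median of 136.1 to 158.7 CPM in high daughters and from 88.4 through 99.5 to 138.8 CPM in low daughters over the 9 experiments. The ranges overlapped, and the high value was above its paired low value in 9 of 9 experiments and in 54 of 86 divisions. Its log2 difference was 0.34 ± 0.08 (SE), 0.28 in run 4 and 0.42 in run 5. Polr2a, the largest subunit of RNA polymerase II, ran from 222.04 through 294.8 to 373.4 CPM in high and from 167.3 through 223.96 to 294.9 CPM in low daughters. Its difference was 0.27 ± 0.08, with the high value above the low one in 9 of 9 experiments. Sec16a, which organises the sites where cargo leaves the endoplasmic reticulum, stood at 111.8 ± 34.6 CPM in high daughters and 77.8 ± 7.88 CPM in low ones (SD, n = 9), a log2 difference of 0.48 ± 0.14 (SE).

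The other genes of this direction were Ccdc61, which encodes a centriolar protein, at 0.75 ± 0.20, Vwa8, a mitochondrial ATPase gene, at 0.30 ± 0.08, and Lnx2, a ubiquitin ligase gene whose product binds Numb, at 0.63 ± 0.19. Each was above in high daughters in 9 of 9 experiments. The zinc finger gene Zfp629 was at 0.93 ± 0.25 and above in 8 of 9. None of these passed adjustment (edgeR, adjusted p = 0.999 for each).

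The other direction began, by unadjusted p, with Adgrl4 and Asph. Adgrl4 (ENSMUSG00000039167, chromosome 3, 151437887 to 151545086), an adhesion G protein-coupled receptor gene, ran from 179.4 through a median of 310.8 to 456.7 CPM in high and from 201.4 through 357.6 to 685 CPM in low daughters. The ranges overlapped, while each experiment's high value was below its paired low value, and the log2 difference was -0.31 ± 0.08 (SE). When every cell weighed alike in place of every read, the Adgrl4 difference was -0.09. Asph, an aspartate hydroxylase gene of the endoplasmic reticulum, ran from 31.6 through 66.8 to 118.9 CPM in high and from 71.6 through 101.8 to 139.2 CPM in low daughters, a difference of -0.52 ± 0.13. It was lower in the high daughter in 60 of 86 divisions.

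Serpina3g, whose product inhibits proteases including lysosomal cathepsins and whose reads may be shared with similar copies of its gene family, had levels of 732 ± 173.7 in high and 888 ± 228.1 CPM in low daughters and a log2 difference of -0.26 ± 0.07. Eif4b, a translation initiation factor gene, stood at 320.7 ± 44.1 and 376.5 ± 49.3 CPM, a difference of -0.22 ± 0.07, with high above low in 1 of 9 experiments. Dock4, an activator of Rac GTPases, was at -0.73 ± 0.20, Rnf19b, a ubiquitin ligase gene, at -0.37 ± 0.10, Zfp637, a zinc finger gene, at -0.61 ± 0.17 and Tapt1 at -0.47 ± 0.14. With every cell weighing alike Dock4 was at -0.43 and Tapt1 at -0.26. The adjusted p was 0.999 for each of these 8 genes (edgeR), so none is called different.

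**Figure D3:**
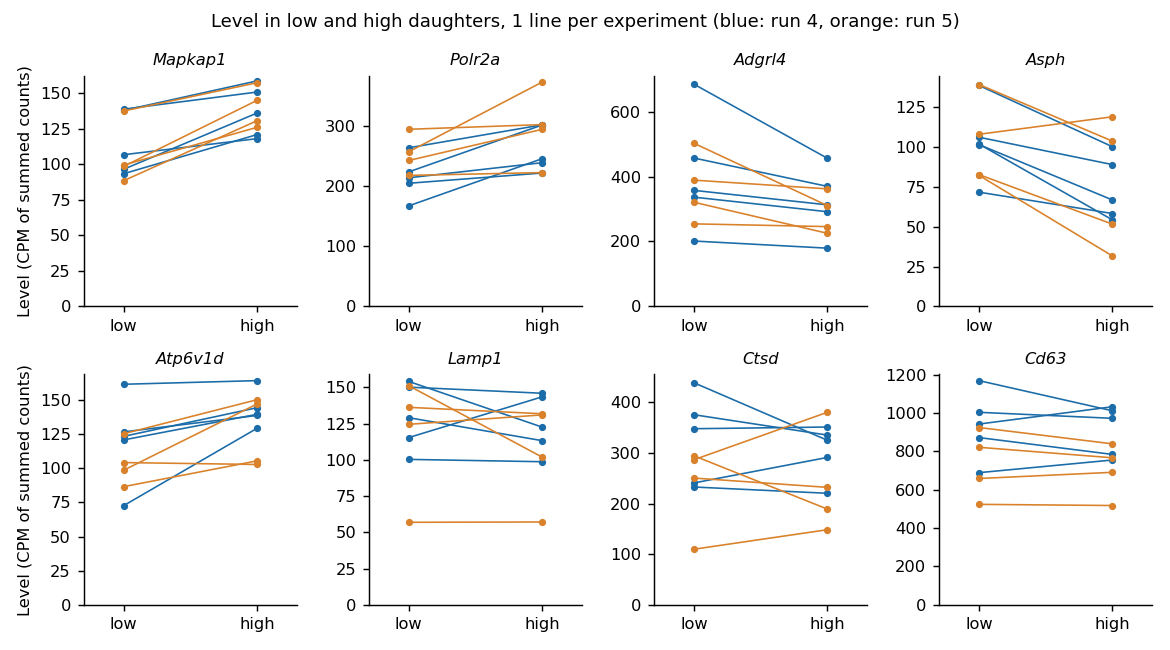
Level in low and high daughters (CPM of summed counts, linear axes from 0), 1 line per experiment, for 4 genes with small unadjusted p and 4 lysosome genes. All 9 lines of Mapkap1 and Polr2a slope up and all 9 of Adgrl4 slope down, as do 8 of Asph, while those of Lamp1, Ctsd and Cd63 run in both directions. For Atp6v1d 8 of 9 lines slope up.

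No lysosome gene was called between the labels. Lamp1 and Lamp2 encode the main glycoproteins of the lysosome membrane. Lamp1 ran from 57.2 through a median of 122.6 to 145.997 CPM in high and from 56.9 through 129.1 to 154.2 CPM in low daughters, and its log2 difference was -0.08 ± 0.09 (SE, 95% interval -0.28 to 0.11). Lamp2 ran from 272.04 through 341.4 to 408.1 CPM in high and from 270.1 through 318.3 to 411.6 CPM in low daughters, a difference of 0.06 ± 0.07 (-0.09 to 0.22). For both genes the ranges overlapped almost fully.

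Cd63, a tetraspanin of late endosomes and lysosomes, had a difference of -0.03 ± 0.05 (95% interval -0.14 to 0.08), and its levels were 819 ± 166.6 in high and 845 ± 196.7 CPM in low daughters. Ctsd, the gene of the aspartic protease cathepsin D, had one of -0.03 ± 0.10 (-0.25 to 0.19), with 274.8 ± 80.3 and 286.3 ± 95.2 CPM. The intervals of these 4 genes all lay well inside 2-fold.

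Of the 48 listed lysosomal hydrolase genes 45 were tested, 0 were called, and 20 had positive and 25 negative differences. Their median log2 difference was -0.03 beside 0.00 over all genes tested, and the interval lay within 2-fold for 40. Ppt1, a palmitoyl-protein thioesterase gene among the members with the smallest unadjusted p, stood at -0.21 ± 0.10, and at -0.08 with every cell weighing alike. The summed level of the list was 6976 ± 717 CPM in high daughters and 7086 ± 970.5 CPM in low ones (SD, n = 9), with high above low in 3 of 9 experiments.

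Among lysosome membrane proteins 42 of 47 genes were tested, with a median of -0.00, 20 positive and 22 negative. Abca2, a lipid transporter gene, was at 0.22 ± 0.08, and Plekhm1, an adaptor of lysosome fusion, at 0.50 ± 0.21, both above in high daughters in 7 of 9 experiments. The vacuolar ATPase, the proton pump that acidifies lysosomes, had 18 of 19 genes tested and a median of 0.02. Its subunit gene Atp6v1d ran from 102.7 through 139.4 to 164.1 CPM in high and from 72.6 through 120.7 to 161.4 CPM in low daughters, a difference of 0.28 ± 0.10. Another subunit gene, Atp6v1c1, stood at -0.23 ± 0.12. High was above low in 8 of 9 experiments for Atp6v1d and in 2 of 9 for Atp6v1c1. None of these members was called (edgeR, adjusted p = 0.999).

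Genes that act on or through lysosomes were not called either. For autophagy, mitophagy and TFEB the median was -0.00 over 41 tested genes, with Gabarap, an autophagosome protein gene, at -0.20 ± 0.09 and Tfe3, a transcription factor gene of lysosome biogenesis, at 0.30 ± 0.17. For mTORC1 and its lysosomal scaffold it was 0.02 over 34 genes. Rheb, the GTPase that activates mTORC1, ran from 99.1 through 107.5 to 145.3 CPM in high and from 100.2 through 125.7 to 157.1 CPM in low daughters, a difference of -0.19 ± 0.09. Rps6kb1, the S6 kinase gene downstream, was at 0.17 ± 0.09. For endosome sorting and recycling the median was -0.01 over 35 genes, with Pip5k1b, a phosphoinositide kinase gene, at -0.38 ± 0.16 and Rab11b, a recycling GTPase gene, at 0.28 ± 0.12. Pip5k1b was at -0.08 with every cell weighing alike.

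**Figure D4:**
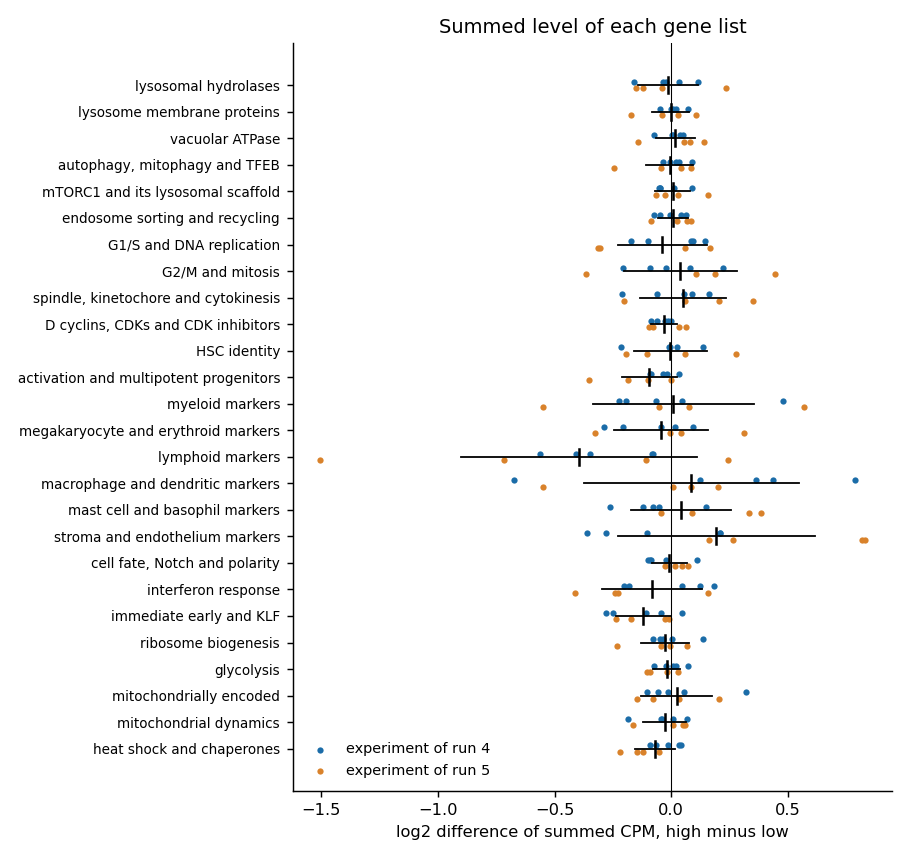
Log2 difference, high minus low, in the summed CPM of each of 26 gene lists (rows), 1 point per experiment, with the mean (vertical tick) and SD over 9 experiments (bar). The lysosome lists at the top lie around 0, from -0.16 to 0.23 for hydrolases, and the widest spread is in lists of few counts such as the lymphoid markers.

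Genes of mitosis, the programme to which Plk1 belongs, had medians slightly above 0 that moved with 1 experiment. In the G2/M list 49 of 50 genes were tested, 0 were called, 36 had positive differences, and the median was 0.05. In the list for spindle, kinetochore and cytokinesis 50 of 52 were tested, 0 called, 38 positive, with a median of 0.08. The interval lay within 2-fold for all tested genes of both lists. The medians were -0.01 and 0.01 in run 4 and 0.14 and 0.19 in run 5. Without experiment 68, whose low daughters include both libraries under 7000 genes, they were -0.01 and 0.04. The part of those libraries in the difference was not tested.

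Cenpf, a kinetochore protein gene, was at 245.2 ± 36.8 in high and 211.2 ± 48.5 CPM in low daughters, with a log2 difference of 0.25 ± 0.10. Its lowest value, 105.1 CPM, was that of the low daughters of experiment 68. Ska1, a gene of the complex that couples kinetochores to microtubules, stood at 0.28 ± 0.13, Ttk, the spindle checkpoint kinase gene, at 0.23 ± 0.11 and Fbxo5, an inhibitor of the anaphase-promoting complex, at 0.24 ± 0.12. In the G1/S list, 49 of 52 tested, the median was -0.02, with Pola1 and Pold2, DNA polymerase subunit genes, at -0.18 ± 0.07 and -0.29 ± 0.13. Weighing every cell alike turned Pola1 to 0.05. The cyclin D and CDK inhibitor list had a median of 0.02 over 20 genes, with Cdkn1b, which encodes the inhibitor p27, at -0.35 ± 0.19. Cdkn1c, the gene of the quiescence inhibitor p57, was at -0.38 ± 0.40 (95% interval -1.23 to 0.47), too imprecise to place within 2-fold.

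Stem cell and activation genes gave no call either. In the HSC identity list 39 of 44 genes were tested, with a median of -0.02, 18 positive and 21 negative. Procr ran from 13.99 through a median of 35.6 to 60.7 CPM in high and from 4.83 through 52.3 to 89.1 CPM in low daughters, a difference of -0.14 ± 0.25 (SE). Kit ran from 714 through 873 to 1006 CPM in high and from 586 through 846 to 1046 CPM in low daughters, a difference of 0.06 ± 0.07 (95% interval -0.09 to 0.21). Angpt1, a ligand of the Tie2 receptor, stood at 0.21 ± 0.09, and Slamf1, with a count in 23.8% of cells, at -1.11 ± 0.52. With every cell weighing alike Slamf1 was at -0.21.

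Myc, a driver of growth on HSC activation, had a difference of -0.07 ± 0.15 (95% interval -0.40 to 0.25) and levels of 155.4 ± 48.2 in high and 168.2 ± 70.2 CPM in low daughters. Tfrc, the transferrin receptor gene, had one of -0.03 ± 0.14 (-0.32 to 0.26), but 0.28 in run 4 and -0.41 in run 5. The activation and multipotent progenitor list had 13 of 20 genes tested and a median of -0.07, and its summed level was above in high daughters in 1 of 9 experiments but in 42 of 86 divisions. Its members Plac8 and Cd53 were at 1.74 ± 0.74, with a count in 16.3% of cells, and -0.35 ± 0.21. Weighing every cell alike gave 0.45 for Plac8 and 0.05 for Cd53.

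Among the fate and polarity genes 28 of 36 were tested and the median was -0.00. Numb, a Notch inhibitor that is sorted unequally in some dividing cells, was at -0.24 ± 0.25 (95% interval -0.77 to 0.29), with -0.45 in run 4 and 0.07 in run 5. Dlg1, a scaffold gene of cell polarity, was at 0.22 ± 0.10. Notch1 (ENSMUSG00000026923, chromosome 2, 26457903 to 26516663), the receptor gene, ran from 7.08 through 15.9 to 38.6 CPM in high and from 7.99 through 32.8 to 93.7 CPM in low daughters, a difference of -0.58 ± 0.20 with adjusted p = 0.999 (edgeR). Notch1 was lower in the high daughter in 44 divisions and higher in 33, and when every cell weighed alike its difference was 0.09. The ranges of both labels overlapped.

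In the early response, chaperone and interferon lists more tested genes had negative than positive differences, with no gene called. Over all 11258 genes tested 5606 differences were negative and 5652 positive. Other lists leaned either way, such as ribosome biogenesis with 23 negative of 37 and the spindle list with 38 positive of 50. In the immediate early and KLF list 14 of 19 tested genes had negative differences, with a median of -0.13, and the summed level was 760 ± 46.4 in high and 827 ± 72.2 CPM in low daughters. High was above low in 1 of 9 experiments and in 33 of 86 divisions for that sum, and the median was -0.20 in run 4 and -0.23 in run 5. Btg2, an antiproliferative early response gene, was at -1.21 ± 0.47 with a count in 31.98% of cells, and Ier3, an early response gene, at -0.33 ± 0.16. In the heat shock and chaperone list 14 of 17 tested genes had negative differences, with a median of -0.06. Its summed level was above in high daughters in 2 of 9 experiments but in 46 of 86 divisions. There Canx, an endoplasmic reticulum chaperone gene, stood at -0.15 ± 0.08 and Dnajb1, an HSP40 gene, at -0.23 ± 0.13, which was 0.06 in run 4 and -0.59 in run 5. For the 27 of 35 interferon response genes tested the median was -0.10, with Ifi44 at -1.66 ± 0.62 and a count in 45.3% of cells, and Xaf1 at -0.59 ± 0.34. With every cell weighing alike Btg2 was at -0.68, Ifi44 at -0.79, Xaf1 at -0.39 and Canx at -0.06.

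Metabolic and biosynthetic lists lay near 0. Ribosome biogenesis had a median of -0.02 over 37 genes, with Dkc1, a gene of RNA pseudouridylation, at -0.20 ± 0.08 and Ddx21, a nucleolar helicase gene, at -0.19 ± 0.10. Glycolysis had 0.01 over 21 genes, with Pdk1, which restrains pyruvate entry into mitochondria, at -0.31 ± 0.13 and the glucose transporter gene Slc2a3 at 0.20 ± 0.12. Mitochondrially encoded genes had 0.05 over the 10 of 15 tested, with mt-Cytb, a respiratory chain subunit gene, at -0.07 ± 0.06. Mitochondrial dynamics had 0.01 over 19. For ribosome biogenesis all 37 intervals lay within 2-fold, and no gene of these lists was called.

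Lineage markers could be tested only in part, and none was called. For megakaryocyte and erythroid markers 13 of 25 were tested with a median of 0.01, and Pf4, the platelet factor gene, stood at -0.70 ± 0.29 and Aqp1, a water channel gene, at -0.51 ± 0.24. With every cell weighing alike these were -0.17 and -0.19. Of the myeloid markers 6 of 17 were tested with a median of 0.07, among them Lyz2, the lysozyme gene, at 0.06 ± 0.11. The 4 tested lymphoid markers had a median of -0.31, and the summed level of that list was above in high daughters in 1 of 9 experiments and 32 of 86 divisions. The 5 tested macrophage and dendritic markers had 0.08, with Cd68, a lysosomal glycoprotein gene of macrophages, at -0.49 ± 0.39. The 4 stroma and endothelium markers tested had 0.25, with Pecam1, the gene of CD31, at 0.24 ± 0.20, and the 3 mast cell and basophil markers had 0.39.

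Whether the effect of inheritance differed between Plk1-positive and Plk1-negative divisions was tested as an interaction of label and Plk1 class, the experiment by class being the block. Of 12465 genes 0 were called (0%, edgeR, smallest adjusted p 1), and 3.54% had an unadjusted p under 0.05. DESeq2 called 2 genes, Amigo1 and Armcx2, each at an adjusted p of 0.0235, with 661 at an unadjusted p under 0.05. Within Plk1-negative divisions alone, edgeR called 0 of 11454 genes and 3.35% had an unadjusted p under 0.05.

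Armcx2 (ENSMUSG00000033436, chromosome X, 134804145 to 134809221), an armadillo repeat gene, had the smallest interaction p. In the Plk1-positive divisions it ran from 6.39 through a median of 32.9 to 34.98 CPM in high and from 6.98 through 18.6 to 28.5 CPM in low daughters, and the high value was above in 8 of 9 experiments. Its log2 difference was 0.50 ± 0.18 (SE) there and -0.60 ± 0.18 in Plk1-negative divisions, a difference between classes of 1.10 ± 0.24 that did not pass in edgeR. Abcc4, an efflux transporter gene, was at 0.27 ± 0.09 and -0.24 ± 0.09, Smox, a spermine oxidase gene, at 0.41 ± 0.23 and -0.85 ± 0.24, and Lrrc59, an endoplasmic reticulum protein gene, at -0.10 ± 0.07 and 0.54 ± 0.13, in the same order. Armcx2, Abcc4, Smox and Lrrc59 were picked for a small interaction p, which widens the gap between their values in the classes. None is read as a difference between the classes. Amigo1, an adhesion molecule gene with a count in 41.9% of cells, had a DESeq2 interaction of -2.76 ± 0.58.

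No lysosome gene was called in the interaction. It was 0.18 ± 0.13 for Lamp1, whose difference was -0.25 ± 0.10 in Plk1-negative divisions, 0.05 ± 0.10 for Lamp2 and 0.00 ± 0.09 for Cd63. Among genes with small p in the selected divisions, Polr2a had an interaction of 0.40 ± 0.12 and Asph one of -0.73 ± 0.21, neither called. Eif4b had -0.03 ± 0.11, with -0.19 ± 0.09 in Plk1-negative divisions. These genes were picked for their difference in the selected divisions, which moves their interaction away from 0. No difference between the classes is read from them. For the G2/M list the median difference was 0.42 in Plk1-negative divisions, where these genes are near their lowest levels (summed level 1445 ± 599 CPM against 11781 ± 1336 in selected high daughters), and 0 of its genes were called in the interaction.

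Sisters resembled each other more than they resembled other selected cells. Over the 1000 most variable genes, the mean Pearson r of log2(CPM + 1) across genes was 0.285 ± 0.0281 between sisters and 0.168 ± 0.0353 between cells of different divisions that shared experiment and plate (SD, n = 9). The difference was 0.116 ± 0.0206 and positive in 9 of 9 experiments, from 0.0910 to 0.144 (exact two-sided sign-flip permutation p = 0.0039, the lowest value possible with 9 experiments). The gap was 0.127 in run 4 and 0.103 in run 5, and 0.115 with cell cycle genes left out. Both kinds of pair had passed the same Plk1 rule. Sisters also sat in adjacent wells in 85 of 86 divisions, for which the unrelated pairs were not matched. Kinship and well position cannot be told apart here. In Plk1-negative divisions the same measure gave 0.150 ± 0.0332, and the difference between the classes was not tested.

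**Figure D5:**
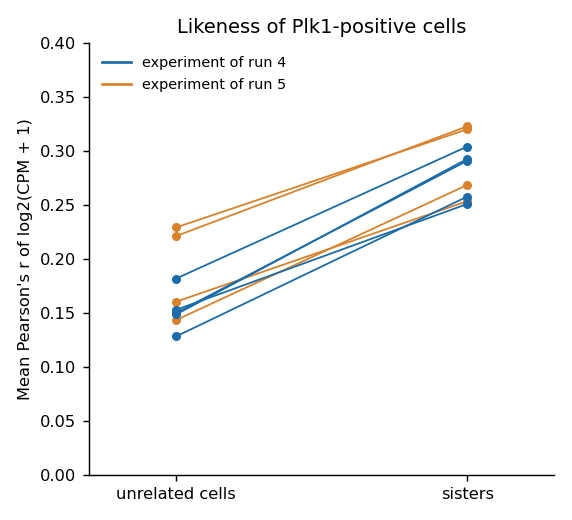
Mean Pearson's r of log2(CPM + 1) over 1000 variable genes for unrelated cells and for sisters of the Plk1-positive divisions, 1 line per experiment, coloured by sequencing run. All 9 lines rise, from a mean of 0.168 to a mean of 0.285.

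The correlation between the levels of sisters varied among gene groups. As a description over the 86 divisions, whose sisters also share a culture, a plate and nearly always neighbouring wells, Pearson's r between the sisters' summed log2 levels was 0.561 for lysosomal hydrolases, 0.536 for G1/S, 0.452 for G2/M, 0.414 for autophagy and 0.409 for HSC identity genes. It was 0.208 for lysosome membrane proteins, 0.118 for mTORC1 and 0.0366 for the vacuolar ATPase. The median absolute log2 difference between sisters was 0.16 for hydrolases, 0.14 for membrane proteins and 0.18 for the vacuolar ATPase. It was 0.24 for G1/S, 0.25 for G2/M, 0.28 for HSC identity, 0.16 for autophagy and 0.15 for mTORC1 genes. A higher r thus did not always go with closer levels, as r also depends on the spread between divisions. In 90 Plk1-negative divisions r was 0.706 for G1/S, 0.608 for the vacuolar ATPase, 0.585 for membrane proteins and 0.576 for G2/M genes. It was 0.467 for autophagy, 0.417 for hydrolases, 0.276 for HSC identity and 0.228 for mTORC1 genes there.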

How the data were processed

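The deposited tables hold counts, raw reads per gene and cell with no normalization by the authors, made with featureCounts of Subread 1.5.0 and SAMtools per the submitters' processing notes. The genome build, like the aligner, is not given in the sources used here. Gene identifiers were looked up in GENCODE M21 (GRCm38), which supplied symbols and positions. The deposited metadata hold the authors' labels per cell (unit: other). The 92 spike-in rows were left out of totals, and 171 count columns of no listed sample were not used. Reads carry no molecular identifiers. Intervals on shares of divisions cover counting error only and not the spread between cultures.

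Sisters were joined by movie, experiment, position and colony. Counts of the selected cells (76735 to 2076840 per cell) were summed per experiment and label and fitted with edgeR 4.0.16 in R 4.3.3 (experiment as block, quasi-likelihood F test after filterByExpr and TMM scaling, Benjamini-Hochberg adjustment over all genes tested, threshold 0.05). Levels are CPM of these sums, so deeply sequenced cells weigh more. Alternatives were DESeq2 1.42.0, limma 3.58.1 (also voom over cells with the division as block), other scaling, filters, weights and Plk1 thresholds, single runs, and each experiment left out. Others were chosen after seeing the data: sister differences with well order and track label as covariates, and divisions with a library under 7000 genes or 200000 counts left out. Fits over cells used genes with a count in at least 20% of cells, as did the similarity measure, a filter added to its design. Exact tests were two-sided and ran in Python 3.11.15 with scipy 1.17.1. The edgeR fit was tested on simulated sums with 200 changed genes, drawn among those above a count floor. It called 35.5% of them at 1.5-fold, 78.5% at 2-fold and 98% at 4-fold, so many smaller differences would be missed.

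Genes are named by a rule: those past the threshold, filled up to 15 by unadjusted p among genes with a count in at least 50% of selected cells, 2 members per list, a fixed set (Plk1, Numb, Kit, Procr, Cdkn1c, Tfrc, Myc and 4 lysosome genes) and 4 for the interaction. Genes that another tool called, and the markers Mecom, Hlf and the like, are named besides. A gene that the rule picks is not reported here. The members, the 26 gene lists and the rule were chosen with earlier results of these data known, so lists are described by counts and medians and not tested.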

Additional observations from a re-analysis of the deposited data

Results flagged for a closer look

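Among the results looked at over the 9 experiments, 9 of them (8.11%) had 1 experiment whose gap to the nearest other exceeded Dixon's 95% critical value, and chance alone picks about 1 in 20. Experiment 68 had 1150.6 more detected genes in high than in low daughters. On the log2(CPM + 1) scale, high minus low, experiment 68 stood apart for Cenpf at 1.03 and for Cd53 at -1.72. Experiment 69 stood apart for Pold2 at 0.73 and for Xaf1 at 1.58. Fbxo5 was at 1.06 in experiment 72, Ska1 at -0.44 in experiment 75 and Slamf1 at 2.30 in experiment 74. The summed level of the autophagy list had a log2 difference of -0.25 in experiment 60.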

How the results depend on the processing

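The count of genes called between high and low daughters was 0 under every alternative run except voom over cells, which called 5, and it was 0 with each experiment left out. The share at an unadjusted p under 0.05 was 3.06% without a filter (748 of 24470 genes), 2.02% with no replicate block and 3.51% to 4.09% with 1 experiment left out. The interaction had 0 calls except by DESeq2, which gave 2. With 1 experiment left out, the difference in detected genes ran from -23.9 to 177.4 and that in mitochondrial percent from -0.023 to 0.039. Of 80 named genes 62 kept their sign in every alternative other than the single runs, where 7 had the opposite sign in at least 1 run, and 0 medians of the 26 lists moved by more than 1 SD. In the order cells weighing alike, sister differences, sister differences with covariates, the reversed values were 0.045, 0.084 and 0.046 for Pola1, 0.053, 0.12 and 0.086 for Cd53, 0.090, 0.15 and 0.16 for Notch1, 0.018, 0.029 and 0.127 for Cd68, 0.12, 0.10 and 0.17 for Procr, 0.10, 0.086 and 0.055 for Cd63, and 0.085, 0.053 and 0.018 for Ctsd. With covariates Fbxo5 was -0.0049, Pecam1 -0.0035 and Tfrc 0.017, and on sister differences Dkc1 was 0.015 and mt-Cytb 0.0072. Voom gave 0.019 for Aqp1, 0.136 for Cd68, -0.033 for Kit and 0.15 for Cdkn1c. A Plk1 threshold of 50 CPM gave -0.0081 for Lyz2, 0.093 for Tfrc and 0.036 for Procr, and leaving out shallow libraries gave 0.0022 for Cd63. Plk1 was 0.0071 with no replicate block and 0.0048 with cells weighing alike. With 1 experiment left out Lyz2 ran from -0.012 to 0.139, Plk1 from -0.074 to 0.082, Ctsd from -0.090 to 0.042, Myc from -0.18 to 0.0053 and Tfrc from -0.11 to 0.059. The cause was not tested. The interval lay within 2-fold for 89.7% of genes with a count in at least 50% of cells and for 76.9% of all, and the part of depth in this was not tested. How the lysosome label was set and how unequal the shares were is unknown.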
